A study of Mus musculus with 1504 samples.

Results

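The genes described here are the endothelin ligand Edn1, the endothelin receptors Ednra and Ednrb, and the endothelin converting enzyme Ece1, in single cells of the mouse lung. They were taken by symbol and are 4 of the 21947 genes in a deposited table of raw reads per gene and cell, with the eGFP reporter left out. All are protein-coding genes, and their mm10 positions from GENCODE M21 are as follows. Edn1 lies on chromosome 13 from 42301476 to 42307990 on the plus strand. Ednra lies on chromosome 8 from 77663031 to 77724464 and Ednrb on chromosome 14 from 103814625 to 103844402, both on the minus strand. Ece1 lies on chromosome 4 from 137862237 to 137965229 on the plus strand.

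The lungs came from C57BL/6 mice with an age of 12 to 15 weeks in the sample labels, and cells were sorted by a fluorescent reporter and read with SMART-seq2, which covers whole polyadenylated transcripts. The labels name 769 cells of Cldn5(BAC)eGFP mice, 374 of Pdgfrb(BAC)eGFP mice and 361 of Pdgfrb(BAC)eGFP/NG2dsRed mice. All 1504 cells therefore carried eGFP under control of Cldn5, an endothelial junction gene, or of Pdgfrb, a mural and fibroblast growth factor receptor, and cells without such a reporter were not analysed here. The columns form 6 sets: EC1 with 243 cells, EC2 with 275 and EC3 with 251, taken as the Cldn5 reporter, and Mural1 with 128, Mural2 with 233 and Mural3 with 374, which are used under their own names because no column name gives their reporter. Animals, plates and dates are missing from the labels used here, so each reporter population counts as 1 sample. With nothing to set the spread between mice, the comparisons carry no test and no p-value. Every interval below is a 95% interval of counting error only, and the values of the column sets are given beside each level to show how far it varied.

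Endothelin-1 is a peptide of the vessel wall and a strong constrictor of blood vessels. It is cut from a larger precursor by furin-type proteases and then by the converting enzyme, and it acts on neighbouring cells. The A receptor of contractile cells couples through Gq to phospholipase C, calcium release and contraction. The B receptor of endothelium is known for release of nitric oxide and prostacyclin and for clearing the peptide from the blood, a role in which the lung has a large part. Endothelin-3, from the related gene Edn3, binds the B receptor as well as endothelin-1 does and the A receptor less well.

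The cells were grouped by clustering on 139 marker genes, none of which is an endothelin gene or a gene of the pathway lists below, and clusters were named only with the suffix "-like". Endothelial-like cells numbered 734. They consisted of 469 general capillary-like cells, 79 aerocyte-like cells (the Car4 capillary cells of the alveolus) and the 186 cells of cluster 3, whose leading genes held 4 arterial markers, 1 venous and 1 general capillary marker and which was given no subtype name. Kept apart were 22 lymphatic-like, 71 pericyte-like, 73 smooth muscle-like, 393 fibroblast-like and 42 chondrocyte- or perichondrial-like cells. A further 169 cells in 2 clusters carried epithelial and leukocyte markers, along with fibroblast markers, and stayed unnamed. All 10 endothelial markers were present in at least 25% of general capillary-like and of aerocyte-like cells, 10 of 11 pericyte markers in pericyte-like cells and 11 of 11 smooth muscle markers in smooth muscle-like cells. The mural classes also shared markers: 9 of 11 pericyte and 7 of 10 fibroblast markers reached that share in smooth muscle-like cells, and 7 of 11 smooth muscle and 6 of 10 fibroblast markers in pericyte-like cells. Reads per cell ran from 100229 to 609242 with a median of 240178, no 2 cells held identical counts, and 71 cells that carried markers of more than 1 type were kept, since no doublet caller was run.

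Levels are given in CPM, the reads of a gene per 1000000 reads over all cells of a class. To count the cells that held a read, each cell was first thinned to 50000 reads, because median depth differed between classes, from 147495 reads in pericyte-like to 371070 in fibroblast-like cells. The size rule asked for a fold of at least 4 and, on the higher side, for 50 CPM or more and a read in 25% of the cells or more. The rule was run over 21808 genes that were not markers.

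**Figure D1:**
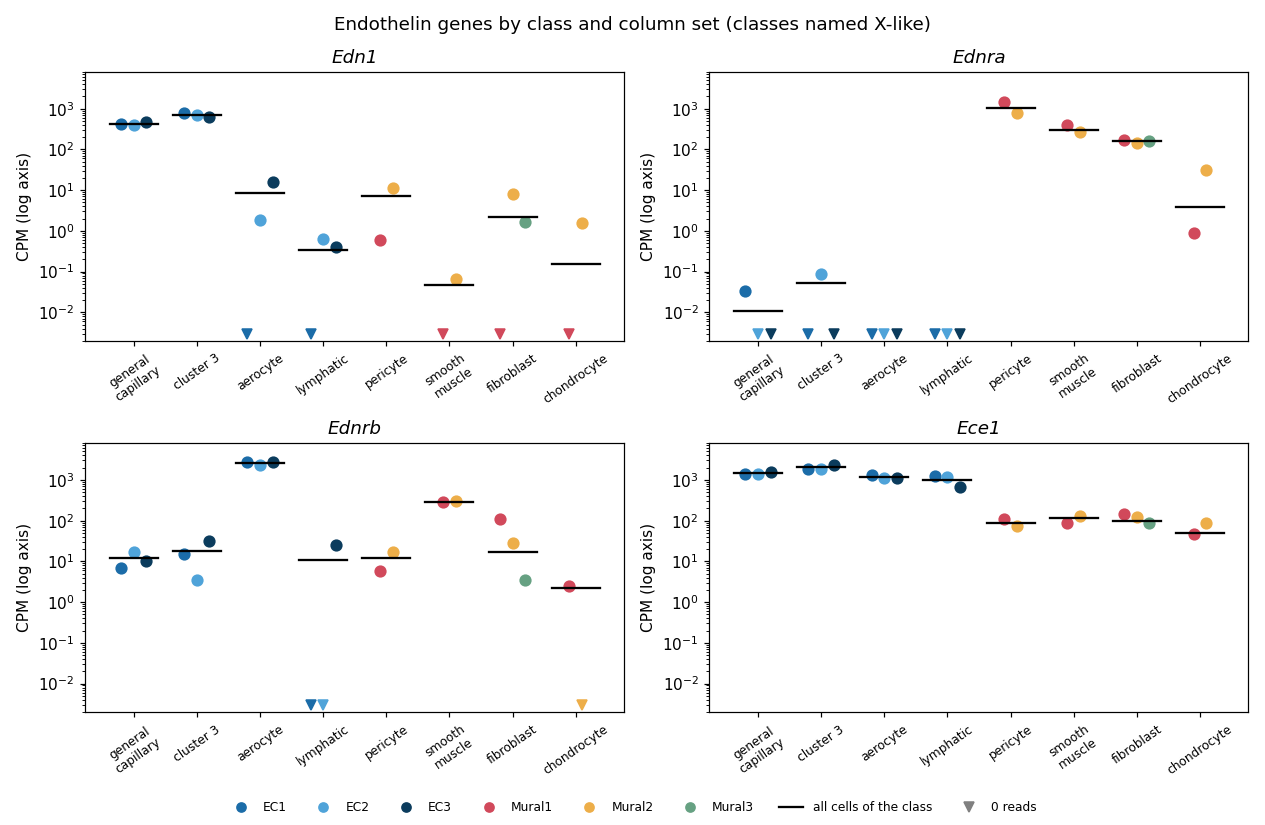
Level of each endothelin gene by class (x axis) and column set (coloured points) in CPM on a log axis; black lines give all cells of the class, triangles a set with 0 reads, and sets with under 5 cells of a class are not drawn. Edn1 is highest in cluster 3 and general capillary-like cells, Ednra in pericyte-like cells, Ednrb in aerocyte-like cells, and Ece1 is at 666 CPM or more in every endothelial and lymphatic point.

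The ligand was an endothelial transcript, and it was nearly absent from aerocyte-like cells. Edn1 stood at 431 CPM in EC1, 402 in EC2 and 461 in EC3 among general capillary-like cells. In cluster 3 it stood at 762, 704 and 637 CPM in the same sets. In the main clustering the ranges of these groups of cells therefore did not overlap. The border between them moved with the clustering. Endothelial-like cells without a subtype name numbered 186 here, 439 at resolution 0.5 and 247 at resolution 2, and this difference was not rerun there. Over all sets Edn1 was at 693 CPM (95% interval 685 to 701) in cluster 3, with a read in 64.5% of cells, and at 428 CPM (424 to 432) in general capillary-like cells, with a read in 43.9%. The transcript was unevenly spread within the capillary class: the median cell held 4.88 CPM and the highest 8369 CPM. Of all Edn1 reads in EC2, 72.6% came from the 28 highest cells of that set, and the corresponding shares were 63.2% in EC1 and 67.0% in EC3. Among the 3 general capillary-like clusters, Edn1 was at 462 CPM in cluster 1, 475 in cluster 7 and 298 in cluster 6, the cluster led by Lyve1 and Vwf. Cluster 7 itself ran from 123 CPM in EC3 to 728 in EC2, which covers the level of the other clusters.

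In the other named classes Edn1 was found in few cells. Aerocyte-like cells gave 0 reads in EC1, 1.88 CPM in EC2 and 16.1 in EC3, and a single EC3 cell held 91.4% of their Edn1 reads. Without it the class stood at 0.738 CPM. Pericyte-like cells gave 0.584 CPM in Mural1 and 11.6 in Mural2, with 96.5% of the reads in 1 cell, and 0.249 CPM remained without that cell. Fibroblast-like cells gave 0 reads in Mural1, 7.82 CPM in Mural2 and 1.61 in Mural3. In smooth muscle-like cells 1 Edn1 read was counted. None of 73 cells held a read after thinning to 50000 reads, which allows a share of up to 4.11%. The 43.9% of general capillary-like cells was counted at the same thinned depth. Before thinning the median depth was 268769 reads in smooth muscle-like and 188683 in general capillary-like cells. The ranges of aerocyte-, pericyte- and fibroblast-like cells overlapped, so their order carries no information.

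**Figure D2:**
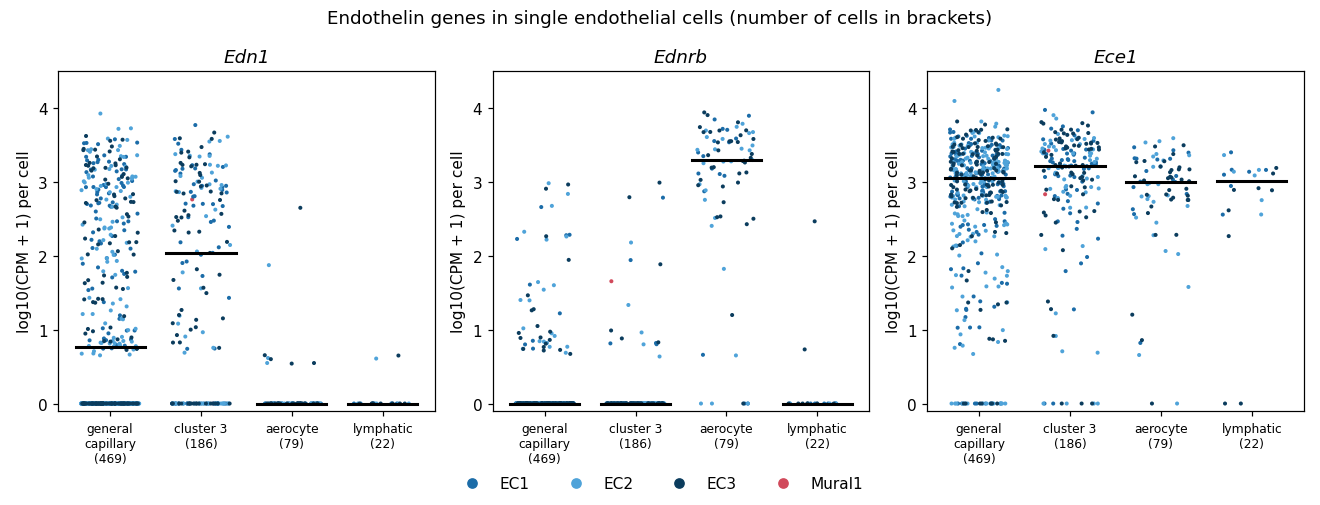
Edn1, Ednrb and Ece1 in single endothelial and lymphatic cells on a log10(CPM + 1) axis, each point a cell coloured by column set and each black line the median cell. Edn1 is at 0 in most aerocyte-like cells (median 0 CPM), Ednrb at 0 in most other cells, and Ece1 is high in all 4 groups of cells.

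The B receptor showed the opposite pattern in the capillary bed. Ednrb stood at 2725 CPM in EC1, 2275 in EC2 and 2735 in EC3 among aerocyte-like cells, with a read in 89.9% of them. General capillary-like cells held 6.77, 17.4 and 10.4 CPM in the same sets and a read in 6.18% of cells. Between these 2 classes 2 of the 4 endothelin genes passed the size rule, against 0.931% of all genes tested (0.44% on the general capillary-like and 0.491% on the aerocyte-like side). Ednrb was 217-fold higher in aerocyte-like cells (204 to 230), and Edn1 was 50.9-fold higher in general capillary-like cells (44.4 to 58.5). The Edn1 fold rested on the EC3 cell described above, and without EC3 it was 376. Ece1 was 1.26-fold higher in general capillary-like cells, a direction that turned with median-ratio scaling (1.01-fold), and Ednra held 1 read on the general capillary side and none on the other. Aerocyte-like cells were also the deeper ones, with a median of 322262 reads. The number of aerocyte-like cells was 18 in EC1, 26 in EC2 and 35 in EC3, and Ednrb summed over all cells of a set followed it, at 299, 306 and 601 CPM.

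Smooth muscle-like cells were the second class with the B receptor. There Ednrb stood at 280 CPM in Mural1 and 301 in Mural2, with a read in 58.9% of cells (46.8% to 70.3%). Far below them, fibroblast-like cells held 111 CPM in Mural1, 28.2 in Mural2 and 3.44 in Mural3, and a single Mural1 cell of 3972 CPM held 64.1% of those reads. The remaining classes, from cluster 3 at 18.2 CPM to chondrocyte- or perichondrial-like cells at 2.18 CPM, each overlapped at least 1 other of them in its sets and had a read in at most 9.09% of cells. In smooth muscle-like cells the 6 aerocyte markers summed to 205 CPM, against 12033 CPM in aerocyte-like cells, and the 10 endothelial markers to 361 CPM, against 33492. Epithelial markers, summed over 12 genes, were at 126 CPM in the smooth muscle-like cells of Mural1 and 8778 in those of Mural2. After cells with over 1000 CPM of the alveolar type 2 marker Sftpc were left out, 60.0% of smooth muscle-like cells held an Ednrb read. The part of RNA from other cells in the Ednrb level was not tested.

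The A receptor marked the mural and fibroblast side. Ednra stood at 1423 CPM in Mural1 and 789 in Mural2 among pericyte-like cells, with a read in 93.0% of them (84.3% to 97.7%). Smooth muscle-like cells held 392 and 262 CPM in the same sets, and 72.6% of them had a read. Fibroblast-like cells held 166 CPM in Mural1, 146 in Mural2 and 158 in Mural3, with a read in 52.2% of cells. These 3 ranges did not overlap, so the order pericyte-like, smooth muscle-like, fibroblast-like was the same in each set that held all of them. Within the fibroblasts Ednra was at 259 CPM in cluster 4, which is led by Col13a1, Nrcam and Fgf10, at 131 in cluster 2, led by Penk and Apod, and at 77.4 in cluster 11, led by Wnt2. The cluster ranges over sets were 199 to 355, 125 to 158 and 67.6 to 93.4 CPM, again without overlap, though cluster 4 held only 6 cells of Mural1 and 10 of Mural2.

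In endothelium the A receptor was at the edge of detection. The 734 endothelial-like cells held 3 Ednra reads in all, or 0.019 CPM (0.004 to 0.057). Aerocyte-like cells held none, which allows up to 0.121 CPM, and lymphatic-like cells none either, which allows up to 0.513 CPM. Chondrocyte- or perichondrial-like cells held little Ednra, at 0.865 CPM in Mural1 and 31.1 in Mural2, where 5 cells were counted.

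Pericyte-like and smooth muscle-like cells both held the A receptor, and the B receptor differed between them. Here 1 of the 4 genes passed the size rule, against 3.96% of genes (1.92% on the pericyte-like and 2.04% on the smooth muscle-like side). Ednrb was 23.7-fold higher in smooth muscle-like cells (20.2 to 28.0), which is 12.4 CPM in pericyte-like against 292 in smooth muscle-like cells. Clustering on variable genes gave 112-fold. Markers could be among those genes, so this alternative is not independent of them. Ednra was 3.51-fold higher in pericyte-like cells (3.40 to 3.62) and did not reach the fold of 4. Per kilobase of exon, a scale on which levels of different genes can be compared, smooth muscle-like cells held 54.8 CPM of Ednra and 68.6 of Ednrb. Pericyte-like cells held 192 CPM per kilobase of Ednra and 2.90 of Ednrb.

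In single smooth muscle-like cells, 33 of 73 held reads of both receptors (45.2%, 33.5% to 57.3%), 20 of Ednra alone, 10 of Ednrb alone and 10 of neither. Of 71 pericyte-like cells, 64 held Ednra alone and 2 held both. Among 393 fibroblast-like cells, 197 held Ednra alone, 8 both and 5 Ednrb alone. A cell without a read after thinning may still express the gene, so these are shares of cells with a read.

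**Figure D3:**
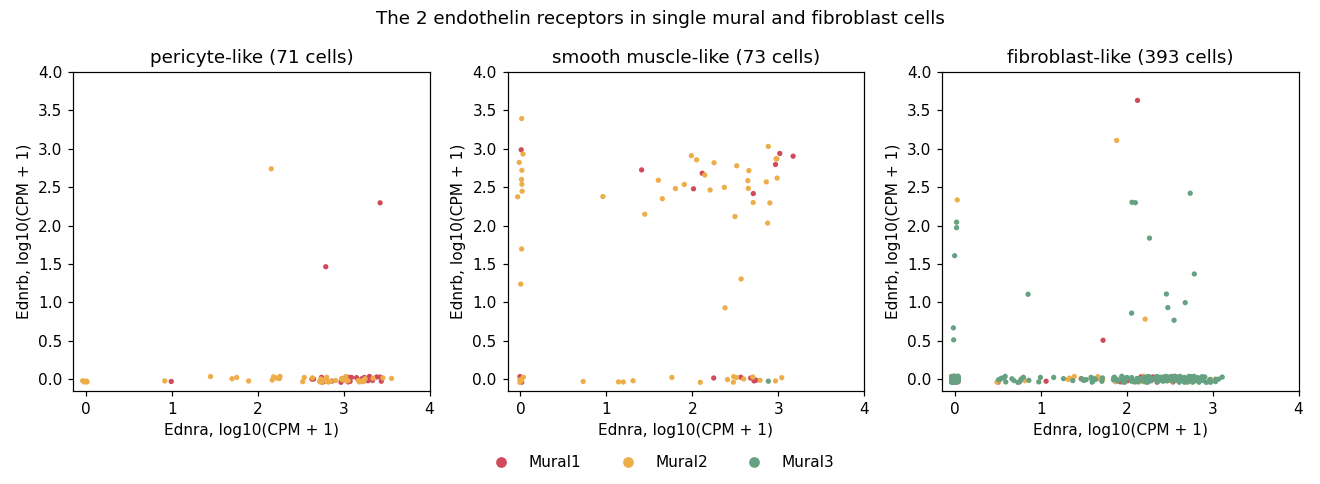
Ednra (x axis) against Ednrb (y axis) in single cells of 3 classes on log10(CPM + 1) axes, with a small random shift so that cells at 0 can be seen and colours for the column sets. Most pericyte-like and fibroblast-like cells lie along the Ednra axis, and 33 of the 73 smooth muscle-like cells held reads of both receptors after thinning.

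Against fibroblast-like cells, Ednra passed the size rule on the pericyte-like side, 6.69-fold higher (6.54 to 6.83), as 1 of 4 endothelin genes against 4.24% of genes (2.25% on the pericyte-like and 1.99% on the fibroblast-like side). Smooth muscle-like cells differed from fibroblast-like cells by 1 of 4 genes as well, against 3.11% of genes (1.66% on the smooth muscle-like and 1.46% on the fibroblast-like side). That gene was Ednrb, 17.5-fold higher in smooth muscle-like cells (16.7 to 18.4). The fold was 44.8 without Mural1, the set of the single high fibroblast-like cell, 4.51 without Mural3 and 49.1 with clusters from variable genes. Ednra was 1.91-fold higher in smooth muscle-like cells and did not pass.

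The converting enzyme was shared by all endothelial cells and lower elsewhere. Ece1 stood at 1828 CPM in EC1, 1840 in EC2 and 2355 in EC3 in cluster 3, and at 1368, 1429 and 1562 in general capillary-like cells. Aerocyte-like cells held 1307, 1107 and 1109 CPM, and lymphatic-like cells 1228, 1189 and 666. In the main clustering, cluster 3 and general capillary-like cells each had a range of their own, and the ranges of aerocyte- and lymphatic-like cells overlapped. At least 90.2% of the cells of each of the 4 classes held an Ece1 read. Smooth muscle-like cells stood at 88.5 and 131 CPM in Mural1 and Mural2, fibroblast-like cells at 148, 126 and 88.7 in Mural1, Mural2 and Mural3, and pericyte-like cells at 107 and 75.3 in Mural1 and Mural2. These ranges overlapped, and the 3 classes cannot be put in order. Among general capillary-like cells, 185 of 469 held both Edn1 and Ece1, and 21 held Edn1 without an Ece1 read. An Ece1 read was present in 89.8% of the cells with an Edn1 read and in 90.5% of those without. In aerocyte-like cells 67 of 79 held Ednrb and Ece1 together. There Ece1 was present in 94.4% of the 71 cells with an Ednrb read and in 100% of the 8 without. On the per-kilobase scale Ece1 was at 383 CPM and Edn1 at 324 in cluster 3, and in aerocyte-like cells Ece1 was at 217 and Ednrb at 608.

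Endothelial-like cells came from the EC sets, apart from 2 cells of Mural1, and pericyte-, smooth muscle- and fibroblast-like cells came from the Mural sets. The median number of genes per cell ran from 1885 to 1918 over the EC sets and from 3934 to 4376 over the Mural sets. Class and column set cannot be told apart between these groups, and the part of either in the folds was not tested. Endothelial-like against mural and fibroblast cells, 3 of the 4 genes passed the size rule each time. These were Edn1 and Ece1 on the endothelial side and Ednra on the other. The share of all genes that passed was 3.76% against pericyte-like cells (1.51% on the endothelial and 2.24% on the other side), 4.81% against smooth muscle-like cells (1.94% and 2.88%) and 4.61% against fibroblast-like cells (2.03% and 2.58%). Ece1 was 17.4-fold higher than in pericyte-like cells (16.4 to 18.5), 13.0-fold higher than in smooth muscle-like cells and 15.6-fold higher than in fibroblast-like cells. Edn1 was 61.0-fold higher than in pericyte-like (49.4 to 76.2) and 195-fold higher than in fibroblast-like cells (175 to 219). Both folds moved with the cells and clusters used. Against pericyte-like cells the fold was 36.8 without Mural1, 729 without Mural2 and 39.7 with cells of at least 150000 reads. Against fibroblast-like cells it was 296 without Mural2, 99.7 without Mural3 and 330 without doublet-like cells. At clustering resolutions of 0.5 and 2 the fold against fibroblast-like cells was 323 and 301. Against the 1 Edn1 read of smooth muscle-like cells the ratio was 8796 with an interval of 1579 to 347415.

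For Ednra the 3 endothelial reads set the ratio. It was 54235 for pericyte-like cells (18554 to 263026), 15456 for smooth muscle-like cells (5286 to 74969) and 8111 for fibroblast-like cells (2775 to 39336), and it was 936, 247 and 145 with clusters from variable genes. Leaving out EC2 gave 35033, 9984 and 5240, and leaving out EC3 gave 35717, 10179 and 5342, with the endothelial side set to 3 reads. Those clusters also placed Edn1 30.4-fold higher in endothelial-like than in smooth muscle-like cells. Ednrb was 34.7-fold higher in endothelial-like than in pericyte-like cells and 25.7-fold higher than in fibroblast-like cells, but it did not pass the rule, because 15.1% of endothelial-like cells held a read. These folds came from the 79 aerocyte-like cells at 2595 CPM: general capillary-like cells, at 12.0 CPM, and cluster 3, at 18.2, were near the 12.4 CPM of pericyte-like and the 16.7 of fibroblast-like cells. Against smooth muscle-like cells, at 292 CPM, the pooled Ednrb level was 1.47-fold higher on the endothelial-like side, again through aerocyte-like cells, and with the mean of scores per cell the direction turned (1.02-fold higher in smooth muscle-like cells).

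The mature endothelins are encoded by short stretches of their genes, shown because Edn1 and Edn3 reads fell in different classes. Each stretch is 63 bases, or 21 codons, lies in exon 2 of 5, and was read from the GENCODE M21 transcripts with mm10 positions on the plus strand. Capitals mark the 4 cysteine codons, which form the disulfide bridges shared by the family. The Edn1 stretch is chr13:42303649-42303711, that of Edn2 chr4:120161951-120162013 and that of Edn3 chr2:174761749-174761811.
Edn1: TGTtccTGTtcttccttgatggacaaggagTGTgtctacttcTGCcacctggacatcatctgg
Edn2: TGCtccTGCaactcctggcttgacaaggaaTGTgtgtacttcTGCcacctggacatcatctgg
Edn3: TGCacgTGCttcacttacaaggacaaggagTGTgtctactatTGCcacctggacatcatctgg
Edn1 and Edn3 share 50 of the 63 bases, and 15 of 21 codons encode the same residue. Edn1 and Edn2 share 53 bases and 18 such codons.

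The other endothelin with reads was Edn3, in pericyte-like cells. It stood at 236 CPM in Mural1, with a read in 53.6% of cells, and at 131 CPM in Mural2, with a read in 23.3%. Of the 71 pericyte-like cells, 25 held Edn3 together with Ednra and none held Edn3 without it. Only 5 of the 71 cells had no Ednra read, so the absence of cells with Edn3 alone carries little information. In smooth muscle-like cells Edn3 had 0 reads in Mural1 and 5.21 CPM in Mural2, and endothelial-like cells held 0.713 to 2.69 CPM over the EC sets. Edn3 was the gene of the 11 other peptides and processing enzymes that passed the size rule on the pericyte-like side, where 2.24%, 1.92% and 2.25% of all genes passed in the next 3 comparisons. It was higher 104-fold against endothelial-like cells (91.2 to 118), 45.8-fold against smooth muscle-like cells (36.6 to 58.1) and 16.6-fold against fibroblast-like cells (15.5 to 17.7). Fibroblast cluster 4 held 26.9 CPM of Edn3, and 31.2 CPM in its Mural3 cells. In pericyte-like cells as in smooth muscle-like cells, epithelial markers were lower in Mural1 (125 CPM) than in Mural2 (2338 CPM), and their part in the lower Edn3 level of Mural2 was not tested. Edn2 was at or below 1.21 CPM in every class.

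The median log2 difference of the 11 genes of this list was -0.75 between endothelial-like and pericyte-like cells, beside 0.04 over all genes with at least 20 reads. Between pericyte-like and fibroblast-like cells it was 1.99, beside 0.37. Furin, which makes the first cut of the precursor, was at 84.9 CPM in pericyte-like, 72.1 in cluster 3, 47.4 in general capillary-like and 28.1 in aerocyte-like cells. Pcsk7, a related protease, stood between 18.2 and 67.2 CPM in the classes. Mme, the enzyme neprilysin, which breaks endothelin down, was at 52.3 CPM in fibroblast-like and 62.2 in chondrocyte- or perichondrial-like cells and at or below 6.64 CPM in the other named classes. Ctsa, the lysosomal cathepsin A, was at 426 CPM in aerocyte-like and 201 in general capillary-like cells. Ece2, a second converting enzyme, lay between 3.01 and 46.2 CPM, and Ecel1, Mmel1, Kel and Cma1 did not exceed 2.52 CPM in any named class.

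Downstream of the receptors, 32 genes of receptor coupling and calcium release were examined. Against endothelial-like cells 6 of them passed the rule on the pericyte-like side, where 2.24% of all genes passed. On the endothelial-like side 1 passed, the protein kinase C gene Prkce, where 1.51% of all genes passed, and the median log2 difference was -0.10 beside 0.04 for all genes. Between endothelial-like and smooth muscle-like cells 3 and 5 of the 32 passed on these sides, beside 1.94% and 2.88% of all genes. Between endothelial-like and fibroblast-like cells 4 and 1 passed, beside 2.03% and 2.58%. The medians were -0.51 beside 0.29 and 1.25 beside 0.56. Trpc6, a cation channel opened by the lipid product of phospholipase C, stood at 766 CPM in Mural1 and 1147 in Mural2 in pericyte-like cells and at 0.191 and 9.83 CPM in smooth muscle-like cells. Against smooth muscle-like cells 4 of the 32 genes passed on the pericyte-like side, where 1.92% of all genes passed. Among them were Trpc6 (136-fold, 116 to 161), Itpr2, an IP3-gated calcium channel (11.6-fold), and the protein kinase C gene Prkca (4.72-fold).

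On the smooth muscle-like side 2 of the 32 genes passed, beside 2.04% of all genes, with a median log2 difference of 0.07 over the list beside 0.16 for all genes. Plcb4, a phospholipase C that Gq activates, was at 456 CPM in Mural1 and 436 in Mural2 in smooth muscle-like cells and at 0.195 and 71.8 in pericyte-like cells, 10.5-fold in all. Ppp1r12a, the targeting subunit of myosin phosphatase, was 4.25-fold higher. Both mural classes held Ppp1r14a, an inhibitor of that phosphatase. It was at 233 CPM in pericyte-like and 170 in smooth muscle-like cells, against 0.473 in endothelial-like cells. The calcium channel gene Cacna1c was at 275 and 322 CPM in them against 17.6, and Mylk, the myosin light chain kinase, at 745 and 1691 against 118. Against fibroblast-like cells 6 of the 32 genes passed on the pericyte-like side, where 2.25% of all genes passed (median log2 difference 1.00 beside 0.37). On the smooth muscle-like side 7 passed, where 1.66% of all genes passed (0.79 beside 0.17), and none passed on the fibroblast-like side of either comparison. Gnaq, the Gq subunit itself, was at 152 CPM in pericyte-like, 47.8 in smooth muscle-like and 60.6 in fibroblast-like cells, and at 266 in endothelial-like cells. Gna11, its close relative, was at 210, 167 and 98.5 CPM in the first 3 of these.

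Of 10 genes that end or shape receptor signals, 1 passed on each side between pericyte-like and smooth muscle-like cells, beside 1.92% and 2.04% of all genes. Grk5, a receptor kinase, was higher in pericyte-like cells (5.57-fold) and Rgs2, which limits Gq, in smooth muscle-like cells (7.81-fold). The median of the list was 1.24 on the log2 scale beside 0.16. Rgs2 stood at 638 and 747 CPM in smooth muscle-like cells of Mural1 and Mural2, and at 40.5 and 127 in pericyte-like cells. Rgs4, another Gq regulator, stood at 540 and 600 CPM in pericyte-like cells of the 2 sets. In smooth muscle-like cells it was at 0.191 CPM in Mural1 and 284 in Mural2, where epithelial markers were also higher, and their part in this was not tested. Between endothelial-like and smooth muscle-like cells 2 of the 10 genes passed on each side, beside 1.94% and 2.88% of all genes. They were Rgs3 and the arrestin gene Arrb1 on the endothelial-like side, and Rgs4 and Rgs2 on the smooth muscle-like side. Rgs3 was at 159 CPM in endothelial-like, 7.02 in smooth muscle-like and 2.33 in fibroblast-like cells.

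**Figure D4:**
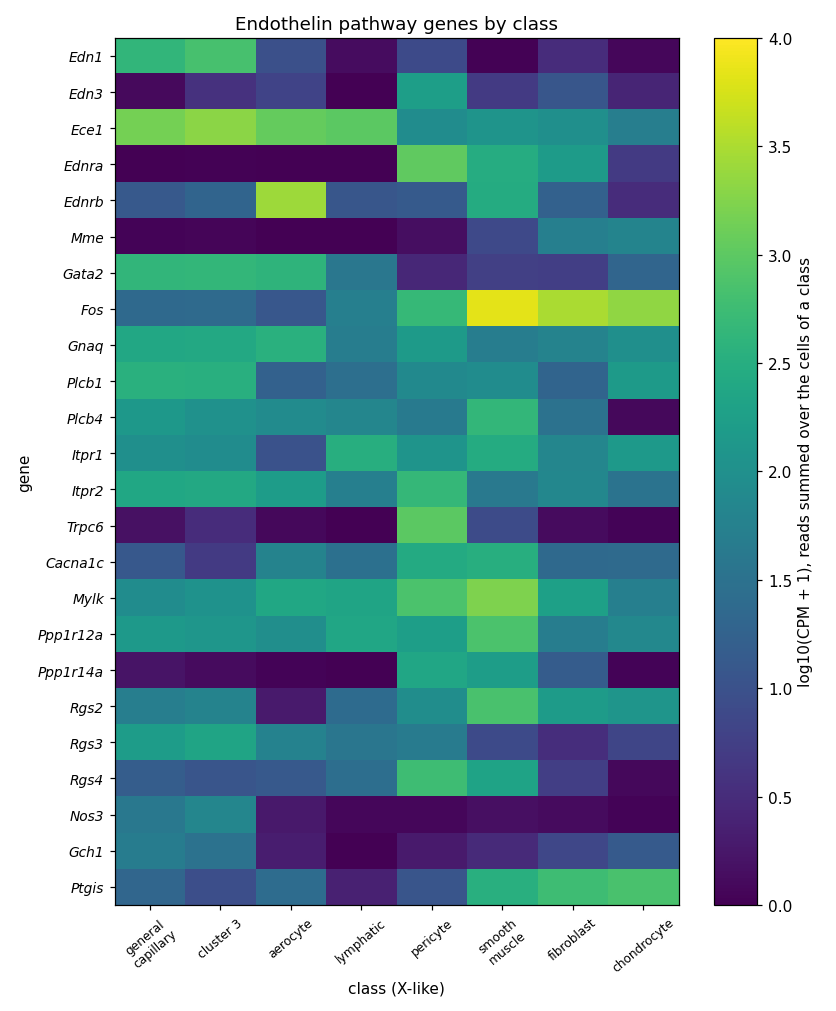
Levels of 24 endothelin pathway genes (rows) in 8 classes (columns), as log10(CPM + 1) over all cells of a class. The columns of pericyte-like and smooth muscle-like cells share Ednra, Cacna1c, Mylk and Ppp1r14a and differ in Ednrb, Edn3, Trpc6, Plcb4 and Rgs2, and aerocyte-like cells combine high Ednrb with little Plcb1, Nos3 and Gch1.

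In aerocyte-like cells the high B receptor was accompanied by few reads of the nitric oxide synthase gene. Nos3 stood at 3.98 CPM in EC1 and 0 reads in EC2 and EC3 in aerocyte-like cells, against 40.9, 28.6 and 48.6 CPM in general capillary-like cells and 51.7, 50.9 and 89.1 in cluster 3. Gch1, which makes the cofactor of that enzyme, was at 0.189, 3.36 and 0.083 CPM in aerocyte-like cells and at 75.9, 49.2 and 13.2 in general capillary-like cells. Neither gene passed the size rule, since over all general capillary-like cells Nos3 was at 38.3 CPM with a read in 13.4% of cells and Gch1 at 47.3 CPM with a read in 8.32%. Of the 7 genes of the relaxing output, 0 passed between these classes in either direction, beside 0.931% of all genes, and the median log2 difference was -0.35 beside 0.78 for all genes. Other genes of the list were Cav1, the caveolar scaffold, at 3528 CPM in general capillary-like and 2450 in aerocyte-like cells, Akt1 at 54.6 and 92.8, Ptgs1 at 58.7 and 86.8, and Ptgis, the prostacyclin synthase, at 19.8 and 25.2. Between endothelial-like and fibroblast-like cells 1 of the 7 genes passed on each side, beside 2.03% and 2.58% of all genes. Cav1 passed on the endothelial-like side and Ptgis on the fibroblast-like side, 31.6-fold. Against smooth muscle-like cells only Ptgis passed, 19.0-fold on the smooth muscle-like side, beside 2.88% of all genes. Against pericyte-like cells only Cav1 passed, on the endothelial-like side, beside 1.51% of all genes.

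Plcb1, a phospholipase C of the Gq pathway, was the 1 of 32 coupling genes that passed between the capillary classes, beside 0.44% of all genes on its side. It stood at 357, 309 and 364 CPM in EC1, EC2 and EC3 in general capillary-like cells, and at 0 reads, 50.2 and 2.81 CPM in aerocyte-like cells, a fold of 20.7 (18.8 to 22.9). Gnaq was at 248 CPM in general capillary-like and 350 in aerocyte-like cells, Gna13 at 176 and 334, and Gnai2 at 674 and 939.

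Of 20 regulators of Edn1 transcription, 1 passed on the general capillary-like side against aerocyte-like cells, beside 0.44% of all genes, and none on the other. That was Foxo1, a forkhead transcription factor, at 214, 195 and 114 CPM in the EC sets against 39.2, 22.7 and 38.6, or 5.22-fold (4.88 to 5.60). The median of the list was 0.26 beside 0.78 for all genes. Gata2, an endothelial activator of Edn1, was at 430 CPM in general capillary-like, 437 in cluster 3 and 398 in aerocyte-like cells, and its ranges over the sets overlapped, from 360 to 478 CPM in general capillary-like and from 332 to 474 in aerocyte-like cells. Against pericyte-like cells Gata2 was 238-fold higher in endothelial-like cells (158 to 380), and against smooth muscle-like cells 88.9-fold. The AP-1 and immediate early gene Fos ran the other way: 5207 and 7509 CPM in smooth muscle-like cells of Mural1 and Mural2 and 9.94 to 30.8 CPM in endothelial-like cells.

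Within general capillary-like cells, the Spearman correlation of Edn1 with each of the 20 regulators, on thinned reads, lay between -0.21 and 0.18 in sets of 152, 183 and 134 cells. The sign was the same in the 3 sets for 6 of the 20: Jund, Klf2, Klf4, Rela and Phactr1 below 0 and Smad4 above. Cells of 1 set are not replicates, so these are descriptions, and in counts this sparse none is a finding. Ece1 correlated with Edn1 at -0.04, -0.08 and -0.02.

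The RefSeq start windows, which run from 250 bases before a gene's start to 50 after it on GRCm38.p6, were searched for GATA and AP-1 motifs because Gata2 and AP-1 are the regulators best known for Edn1. All 4 genes had a window, with 4 windows for Ece1. The GATA motif was searched as AGATAA on both strands. Read on the other strand it is TTATCT. It occurred in 11.2% of 32851 windows and, of the endothelin genes, in that of Edn1 only. The match begins at base 9 of the transcript, and is shown with 5 flanking bases at chr13:42301479-42301494. An AP-1 motif TGANTCA was in 7.81% of windows and in none of the endothelin genes. The form TGACTAA, which differs from it by 1 base, was in 2.35% of windows and in that of Edn1, shown at chr13:42301507-42301523. No other form 1 base away was searched. The 2.35% is therefore the rate of this 1 chosen form and not of all such forms, and its match in Edn1 is a description only. Capitals mark the motif on the plus strand.
Edn1, GATA: gggtcTTATCTctggc
Edn1, AP-1 form: gtgggTGACTAAtcaca
A match describes the letters only and shows no bound factor.

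Fibroblast-like cells of Mural3 (306 cells) were set beside those of Mural1 and Mural2 (87 cells) with a fold of at least 2, and 0 of the 4 endothelin genes passed, against 0.876% of genes (0.394% on the Mural3 side and 0.481% on the other). Ednra was at 158 CPM in Mural3 and 155 in the others (ratio 1.02, 0.990 to 1.06). Ece1 was 1.53-fold higher in Mural1 and Mural2 (1.48 to 1.59), and Ednrb was 19.1-fold higher there, on the reads of few cells, with a read in 3.45% of cells against 3.27%. Of the other pathway genes 3 passed. Mme was 2.09-fold higher in Mural3, at 58.9 CPM against 7.62 in Mural1 and 45.2 in Mural2. Itpr1 (2.02-fold) and the hypoxia factor gene Epas1 (2.45-fold) were higher in Mural1 and Mural2.

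The genes whose levels over 17 groups of class and column set were most like each endothelin gene were sought among 8525 genes, by Pearson correlation of log2(CPM + 1), as a description. Groups of the same class or of the same column set are not independent of each other. For Edn1 they were Mctp1 (0.956), Ephb4, Grrp1, Dll1 and Car14 (0.933). Dll1, a Notch ligand, was at 62.3 CPM in general capillary-like, 68.9 in cluster 3 and 0.32 in aerocyte-like cells. For Ednra they were Arhgap24 (0.987), Heyl, Foxs1, Pgf and Rasl12 (0.976). Heyl, a Notch target, was at 813 CPM in pericyte-like, 728 in smooth muscle-like and 165 in fibroblast-like cells. The values for Ednrb were lower: Bin1 (0.861), Tekt5, Dpysl5, Rasa4 and Slc48a1 (0.797). For Ece1 they were Spns2 (0.986), a sphingosine phosphate exporter, Parvb, Eltd1, Ushbp1 and Rasip1 (0.979).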

How the data were processed

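Reads per gene were deposited by the authors as raw counts, with a second table of scores that are deposited counts scaled to 500000 per cell (all within 0.5 of that). The submitters' processing notes name STAR 2.4.2a and mm10. The counter, annotation and cell filter are not given in the sources used here. Counts were used for all results, scores in 1 alternative. SMART-seq2 reads carry no molecular identifiers. Every cell had at least 50000 reads, so none was removed. The thinned depth of 50000 reads bounds each share, and the depth before thinning ran from 100229 to 609242 reads per cell.

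Clusters came from Leiden (scanpy 1.11.5, leidenalg 0.10.2; 15 components, 15 neighbours, resolution 1) on log1p reads per 10000 of the markers. Intervals are exact Poisson, Clopper-Pearson and conditional for ratios, and limits for 0 are 3 counts. A side under 3 reads was set to 3 for the size rule, the log2 differences and folds under alternatives; printed main ratios use the reads. The members, gene lists, cluster naming thresholds and size rule were chosen with earlier results of these data known. Named genes are the 4 members, all other peptides and enzymes, up to 4 per list and comparison by fold and 4 by CPM, all regulators in the correlations, and the 5 most alike; the other genes named were chosen after their values were seen. TMM factors came from edgeR 4.0.16. The size rule was tested on simulated counts with Poisson error only. Those counts lack the uneven spread between cells seen for genes such as Edn1, so that case was not tested. Alternatives changed the scaling, thinning, minimums, clustering, depth limit and doublet-like cells, and left out each column set in turn. Some genes of the lists are counted but not reported here by name.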

Additional observations from a re-analysis of the deposited data

Results flagged for a closer look

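The 2 unnamed clusters, whose cells carry epithelial and leukocyte markers and which entered no comparison, also held endothelin reads. In cluster 5 (106 cells, 70 of them from Mural2) Edn1 was at 20.9 CPM, Ednra at 49.4, Ednrb at 14.8 and Ece1 at 182. In cluster 12 (63 cells, 48 from Mural3) Edn1 was at 25.8 CPM, Ednra at 142, Ednrb at 14.8 and Ece1 at 144. These levels are listed because reads were present in cells left out of the comparisons. Whether the cells express the genes was not tested, and no cells without a reporter were there to set them against. Edn1 was held by 17.0% of the cells of cluster 5 and 7.94% of those of cluster 12, and 1 cell of cluster 12 reached 1002 CPM.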

How the results depend on the processing

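No paired analysis was possible because the columns carry no replicate numbers of the labels and each reporter population is 1 sample. No endothelin gene that passed the size rule lost its call or changed direction under those of the 20 alternatives in which its comparison could be run. The smooth muscle comparisons could not be run without Mural2. Of the alternatives 2 (cluster 3 counted as general capillary-like, and 198 cells with over 1000 CPM of Sftpc left out) were chosen after seeing the data. Of 600 log2 differences 395 stayed within the main interval and 205 moved, and of 628 shares 603 stayed and 25 moved. Part of those that stayed could not have moved. Changes of thinning or of the minimums leave every log2 difference as it was. Changes of scaling, scores or minimums leave every share as it was, and leaving out a column set leaves classes without its cells unchanged. These tallies therefore overstate how stable the values were. The sign turned in 17 of the log2 differences, none of them of a gene that had passed: 5 of Edn1, 3 of Ednra, 3 of Ednrb and 6 of Ece1.

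With no minimum of CPM or cells, 6 calls were gained, and 2 endothelin genes passed between pericyte-like and smooth muscle-like cells, 2 between smooth muscle-like and fibroblast-like cells and 2 between the fibroblast sets. The counts of all genes then rose, in the order of the sides named, to 5269 and 1094 for general capillary-like against aerocyte-like cells, 2769 and 3522 for endothelial-like against pericyte-like, 3251 and 2946 against smooth muscle-like and 4587 and 2425 against fibroblast-like cells, 3032 and 2363 for pericyte-like against smooth muscle-like, 4600 and 1954 for pericyte-like against fibroblast-like, 3503 and 1690 for smooth muscle-like against fibroblast-like cells, and 3173 and 3663 for Mural3 against the other fibroblasts. That follows from the wider set of genes admitted.

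TMM factors gave 312 and 657 for pericyte-like against fibroblast-like cells (490 and 435 without them) and 133 on the Mural3 side (86). They shifted the median of all genes by up to -0.58 on the log2 scale, and the share of calls on the pericyte-like side went from 53% to 32.2%. Leaving out 1 column set at a time gave 86 to 208 genes on the Mural3 side and 105 to 267 on the other, with both highest values without Mural2. The cause was not tested. The Mural3 comparison could not be fitted without Mural3 or with variable genes, nor the 3 smooth muscle comparisons without Mural2, since under 20 cells were left on a side.

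Depth limits the Ednra and Edn1 ratios that rest on 1 to 3 reads, and intervals leave out the spread between mice.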
